A study of Mus musculus with 2 samples.

Results

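Fc receptors bind the constant part of antibodies, and Fc receptor-like proteins are their relatives in the immunoglobulin superfamily. The 9 genes described here, Fcer2a, Fcgr2b, Fcer1g, Fcmr, Fcrla, Fcrlb, Fcrl1, Fcrl5 and Fcgrt, were chosen by name, and every probe set that the array's gene table gives to 1 of them was taken. This found 15 probe sets for 7 of the 9 genes, among 18193 genes with a probe set in all. Fcrlb and Fcrl5 had no probe set under these names and were not analysed here.

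On B cells, Fc receptors couple the antibody already made to the response that makes more of it. The low-affinity IgE receptor CD23 (Fcer2a) marks mature follicular B cells and is induced by interleukin 4 and CD40. The inhibitory IgG receptor (Fcgr2b) damps antigen receptor signalling when antigen arrives bound to IgG, the IgM receptor (Fcmr) binds secreted IgM, and the neonatal receptor (Fcgrt) binds IgG inside endosomes and returns it from degradation.

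The cells came from mice of the NOD strain, which become diabetic through autoimmunity, at an age of 8 weeks. They were B cells negative for Thy1 and CD11c, surface proteins of T cells and dendritic cells, and positive for B220, a form of the CD45 protein on B cells. One group carried a transgene for human AIRE, the factor through which thymic epithelium expresses genes of other tissues, placed under an MHC class II promoter, which is active in B cells and other antigen-presenting cells, and the other group was non-transgenic. Each group was 1 Affymetrix array of total RNA from 2 mice, so the comparison of transgenic with non-transgenic cells has no replicate, no test and no measured spread between animals, and the ratios below compare those arrays only. From which organ the B cells were taken is not given in the sources used here.

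Values are linear signal intensities as deposited, and ratios are log2 of transgenic over non-transgenic, with intensities under 25, the pooled lower quartile, set to that floor. Where a gene had several probe sets, the one of highest mean level stood for it, and the gene was kept where its higher value reached the pooled median, 98.8, which 10804 genes did. The median intensity was 93.1 in transgenic and 104.3 in non-transgenic cells, and the kept genes had a median log2 ratio of 0.01 with an SD of 0.58. As a measure of reading error, the log2 ratios of different probe sets of 1 gene had a pooled SD of 0.41 over 4613 genes with at least 2 probe sets above the filter on both arrays. That figure covers only how the probe sets of the same 2 RNA samples disagree. The B cell marker Ms4a1 (CD20) was bright, at 28071 and 41029 (transgenic first here and below). Ptprc, the gene of CD45 in all its forms and not of B220 alone, read 26837 and 37671. Itgax, the gene of CD11c, was also above the filter at 757.6 and 707.7. The endogenous Aire probe set was under the filter on both arrays (84.5 and 91.7), and since it was designed for the mouse transcript its level is no check on the transgene.

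Fcer2a and Fcgrt were the 2 members at least 2-fold apart, and both were lower on the transgenic array. No member was at least 2-fold higher. Among all genes above the filter, 4.76% were at least 2-fold lower and 2.7% at least 2-fold higher. That split, with 36.2% of the 2-fold genes on the higher side, turned to 58.1% when the arrays' medians were aligned (median ratio of all kept genes 0.19), 48.0% after quantile normalization and 48.9% after loess. All 7 measured members were above the filter on both arrays, 6 of them had a ratio below 0 (5 with aligned medians), and their median was -0.45 against 0.01 over all kept genes. By probe set, 14 of the 15 were above the filter, 12 of these were lower on the transgenic array and 3 of them were at least 2-fold lower, where 6.08% of all named probe sets above the filter were; none was at least 2-fold higher, against 2.76% of all.

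**Figure D1:**
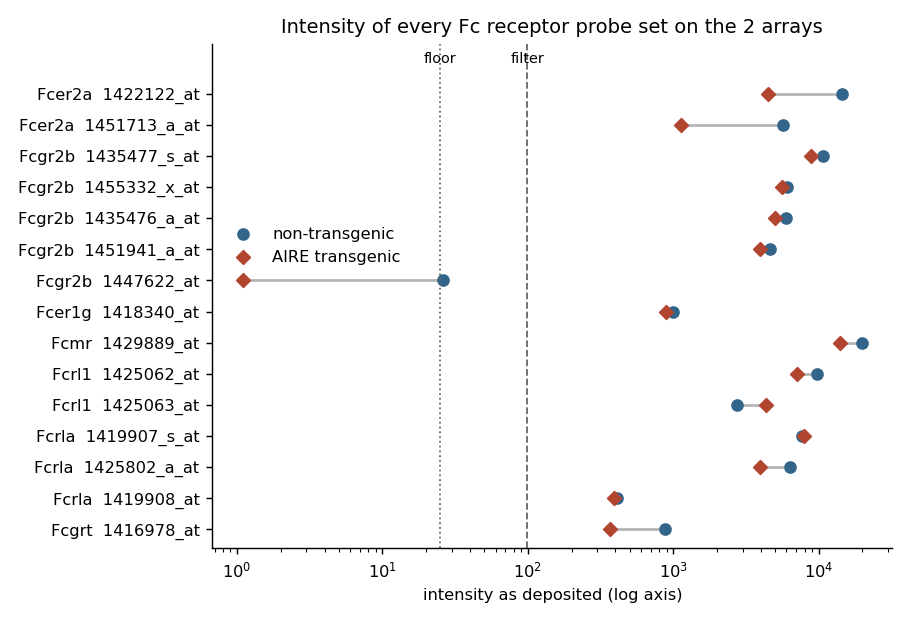
Intensity as deposited (log axis) of each of the 15 probe sets of the 7 measured genes, with a circle for the non-transgenic and a diamond for the transgenic array, the floor dotted and the filter dashed. Both Fcer2a probe sets and the Fcgrt probe set have the widest gaps among those above the filter, the 4 bright Fcgr2b probe sets have narrow gaps, and the 2 Fcrl1 probe sets point in opposite directions.

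The promoter windows of Fcer2a and Fcgrt are shown because these were the 2 members past 2-fold. The sequences are RefSeq's on GRCm38.p6, from 250 bases before to 50 after an annotated start, and Fcer2a has 3 such starts, all on the minus strand of chromosome 8. Its upstream window is chr8:3694125-3694424, its middle window chr8:3690812-3691111 and its downstream window chr8:3690341-3690640. The Fcgrt window, also on the minus strand, is chr7:45103773-45104072. Capitals mark matches, on either strand, to 5 short elements: the STAT6 element TTCNNNNGAA, the interferon-gamma activated site TTCNNNGAA, the core of the interferon-stimulated element GAAANNGAAA, the RBPJ core TGGGAA and the TATA box TATAAA.
Fcer2a upstream window: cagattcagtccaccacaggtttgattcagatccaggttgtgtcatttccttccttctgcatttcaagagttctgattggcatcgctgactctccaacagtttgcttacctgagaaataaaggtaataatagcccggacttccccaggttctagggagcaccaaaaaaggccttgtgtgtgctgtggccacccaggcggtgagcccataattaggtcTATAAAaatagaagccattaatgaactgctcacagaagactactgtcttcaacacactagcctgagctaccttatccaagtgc
Fcer2a middle window: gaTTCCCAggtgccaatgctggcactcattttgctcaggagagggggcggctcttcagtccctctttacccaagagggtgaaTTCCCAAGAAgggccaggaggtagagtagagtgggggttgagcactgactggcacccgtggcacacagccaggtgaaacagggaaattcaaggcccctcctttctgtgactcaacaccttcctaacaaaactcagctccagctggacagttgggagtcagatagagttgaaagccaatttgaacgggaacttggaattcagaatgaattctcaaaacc
Fcer2a downstream window: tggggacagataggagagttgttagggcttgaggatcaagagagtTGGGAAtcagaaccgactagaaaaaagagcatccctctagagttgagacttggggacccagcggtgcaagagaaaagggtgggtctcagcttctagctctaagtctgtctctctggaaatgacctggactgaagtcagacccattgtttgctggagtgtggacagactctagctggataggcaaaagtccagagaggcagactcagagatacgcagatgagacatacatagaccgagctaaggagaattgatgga
Fcgrt window: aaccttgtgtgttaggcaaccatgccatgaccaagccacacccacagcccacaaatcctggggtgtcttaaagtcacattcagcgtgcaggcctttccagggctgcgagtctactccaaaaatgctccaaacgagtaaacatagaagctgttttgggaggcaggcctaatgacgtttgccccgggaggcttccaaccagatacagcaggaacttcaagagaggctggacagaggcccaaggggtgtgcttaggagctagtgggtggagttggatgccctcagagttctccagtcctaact

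The middle Fcer2a window was the only 1 of the 11 windows of the 9 genes with a STAT6 element, the kind of site through which interleukin 4 signals, and its letters are TTCCCAAGAA, starting 168 bases before the annotated start. Of 32851 RefSeq promoter windows of this length, 6.95% hold such an element. The first 6 letters of that match are also an RBPJ core read on the other strand, and a further RBPJ core lies nearer the window's 5′ end; 25.6% of all windows hold one. The upstream window has a TATA box starting 33 bases before its start, an element that 13.6% of windows hold. The Fcgrt window holds none of the 5. These are matches of letters only, and which start the B cells used was not measured.

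Fcer2a, the IgE receptor, had the lowest ratio of the members. Its probe set of highest level, 1422122_at, read 4463 in transgenic and 14414 in non-transgenic cells, a log2 ratio of -1.69, so that the transgenic value was 31.0% of the other. Its other probe set, 1451713_a_at, whose name marks probes shared by transcripts of 1 gene, read 1131 and 5670, a log2 ratio of -2.33 and 19.9%. Both probe sets were therefore at least 3-fold lower in transgenic cells, and they differed from each other by 0.63, and 38.4% of the 4613 genes with several probe sets differed by as much or more.

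The size of the Fcer2a difference was uncommon at its brightness. Among the 1081 genes in the brightest 10% of those kept, 1.67% were at least 2-fold lower and 0.74% at least 2-fold higher, the SD of the log2 ratio was 0.43 and 2 genes had a lower ratio than Fcer2a. These, named after their values were seen, were Lbh, a transcriptional cofactor, at 2160 and 8863 (-2.04), and the kappa light chain variable gene Igkv9-120 at 3584 and 13274 (-1.89), whose probe set may share sequence with other variable genes. The 4613 genes with several probe sets were counted by those above the filter on both arrays. By these, 13 genes (0.282%) had every such probe set at least 2-fold lower, and 4 had every such one at least 3-fold lower. These 4 were Fcer2a, Il4ra, Pou2f2, which encodes the octamer-binding factor Oct-2, and Rflnb, which encodes a filamin-binding protein, the last 2 also named after their values were seen. A further Il4ra probe set, under the filter and so not counted, was at 97.5 and 86.2 (0.18).

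**Figure D2:**
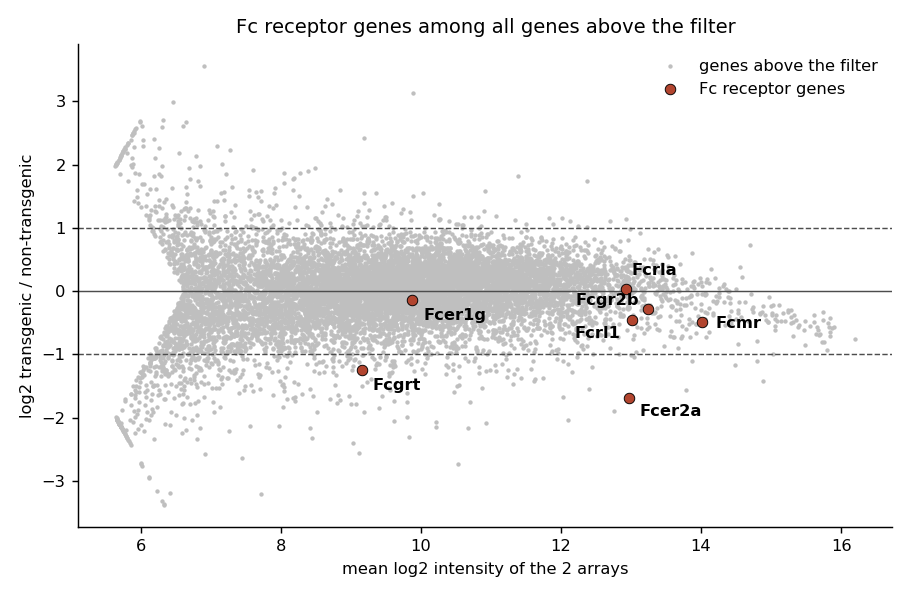
Log2 ratio of transgenic over non-transgenic intensity against the mean log2 intensity of the 2 arrays for 10804 genes above the filter (grey) and the 7 measured Fc receptor genes (red), with dashed lines at 2-fold. Fcer2a lies far below the cloud at its level and Fcgrt below it at a lower level, and the other 5 lie within 2-fold; the very brightest genes on the right lean lower as a whole.

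Other genes of the B cell lineage were lower on the same array too. All 12 measured genes of the B cell identity list had a ratio below 0 under each of the 4 scalings, and with the values as deposited these ran from -1.42 for Cd79a, which carries the signal of the antigen receptor, to -0.43 for the adaptor Blnk, with a median of -0.57, and 1 of them (Cd79a) was at least 2-fold lower. By other probe sets above the filter, Pax5 (-1.44), Ebf1 (-1.27) and Cd22 (-1.02) were more than 2-fold lower, and Cd40 read 0.17 by one. Where the probe set of median ratio stood for each gene, 3 of the 12 were at least 2-fold lower. By the probe set of highest level, Fcer2a was lower than every one of the 12, and its log2 ratio minus their median was -1.13. The log2 ratio of Fcer2a minus that of Ms4a1 was -1.14, a comparison within the arrays that a common scaling factor cannot alter. The gap to the identity median was -1.13, -1.16 and -1.12 with aligned medians, quantile normalization and loess. In RNA from many cells at once, fewer cells of a type and less RNA per cell cannot be told apart, so whether fewer B cells carried CD23 transcripts or each carried less was not measured.

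CD23 separates B cell subsets, being high on follicular and low or absent on marginal zone and immature B cells. The follicular list had a median of -0.92 over 8 genes, all with ratios below 0 (except Bcl2 with aligned medians), and 2 at least 2-fold lower. These were the interleukin 4 receptor chain Il4ra and S1pr1, a receptor for exit into lymph, at 1528 and 3391 (-1.15). The number past 2-fold moved with the scaling, to 1 with aligned medians and 4 after quantile normalization or loess. It was 3 where the probe set of median ratio stood for each gene. The Bcl2 probe set of highest level read 2172 and 2301 (-0.08), while its others read -1.04, -1.19, -1.10 and -0.10. The size of the Bcl2 difference therefore rests on the choice of probe set. The marginal zone list stood at -0.06 over 10 genes with none past 2-fold, and Plac8 was at 18344 and 26276 (-0.52) and Mzb1, which helps IgM fold, at 17971 and 16335 (0.14). Averaging each gene's probe sets, or taking the one of median ratio, gave 1 gene of this list at least 2-fold lower, Notch2. S1pr3 was at 3685 and 3391 (0.12), but its other probe sets read 918.3 and 1611 (-0.81) and 180.7 and 433.3 (-1.26). The immature and transitional list stood at 0.68 over 9 genes, with 4 at least 2-fold higher, against 2.7% of all kept genes. The surrogate light chain gene Vpreb1 was at 167.7 and 31.7 (2.40), and the recombinase gene Rag1 read 126.7 in transgenic cells and a value under the floor in the others, so at least 5.07-fold higher. The terminal transferase gene Dntt was at 137.7 and 65.2 (1.08) and the progenitor transcription factor Myb at 1809 and 822.9 (1.14). Myb was higher by all 3 of its probe sets, and of these 4 genes it alone was above the filter on both arrays. With both values required to reach the median, the number at least 2-fold higher was 1. The 2 genes of this list with ratios below 0 were Cd24a at 21059 and 26632 (-0.34) and Igll1 at 205.4 and 234.4 (-0.19). That Igll1 probe set is marked as shared, and a second, above the filter on 1 array only, read 58.1 and 128.4 (-1.14). With probe sets marked as shared left out, 1 gene of this list was at least 2-fold lower. The germinal centre list stood at -0.68 over 8 genes, with 3 at least 2-fold lower, against 4.76% of all kept genes. These were Mef2b at 49.6 and 250.3 (-2.34), which was above the filter on the non-transgenic array only, Basp1 at 437.6 and 1300 (-1.57) and S1pr2 at 199.4 and 584.7 (-1.55), whose second probe set pointed the other way at 143.1 and 89.1 (0.68). With both values required to reach the median, the count was 2. Plasma cell genes had a median of -0.20 over 8 with none past 2-fold, Jchain being at 17224 and 24903 (-0.53). Of their defining genes, Xbp1 was at 7650 and 6260 (0.29, and from -0.08 to 0.82 by its other 3 probe sets), Sdc1 at 487.2 and 578.6 (-0.25) and Prdm1 at 283.5 and 255.8 (0.15). Other Sdc1 probe sets read 0.08, 0.12 and, above the filter on 1 array only, -2.45 (35.0 and 191.3). Taking each gene's probe set of median ratio gave 1 plasma cell gene at least 2-fold lower, Irf4 at 203.5 and 411.6 (-1.02). By the probe set of highest level, the follicular and germinal centre medians lay on the same side of 0 as Fcer2a under each of the 4 scalings. Under each, the immature median lay on the other side with 7 of 9 genes above 0, and the marginal zone genes were split 5 and 5. The part of these subsets in the Fcer2a difference was not tested.

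Genes that act on CD23 did not all lie on the same side. Of 11 measured regulators and partners above the filter, 8 had ratios below 0 and 3 above (7 and 4 with aligned medians), the median was -0.49, 1 was at least 2-fold lower and none was at least 2-fold higher. The lower one was Il4ra, the interleukin 4 receptor alpha chain, at 910.8 and 3057 (-1.75), with a second probe set above the filter at 370.5 and 1858 (-2.33), beside -1.69 and -2.33 for the Fcer2a pair. The remaining Il4ra probe set was under the filter (97.5 and 86.2). Downstream of that receptor, the kinase gene Jak1 was at 8664 and 12368 (-0.51), with its other 2 probe sets at -0.35 and -1.41 (442.9 and 1178 for the latter). Stat6, the factor after which the element shown above is named, was at 4270 and 4509 (-0.08) with a second probe set at -0.66. The receptor gene Notch2, which directs B cells to the marginal zone, was at 3702 and 7013 (-0.92) with a dim second probe set at 34.4 and 104.1 (-1.60), while Rbpj, its DNA-binding partner, was at 1125 and 756.6 (0.57) and higher by all 3 of its probe sets. Adam10, the protease that sheds CD23 from the cell surface, was at 6258 and 3992 (0.65) and higher by each of its 3 probe sets above the filter. Complement receptor Cr2 was at 7135 and 10525 (-0.56). Cd40, whose product was named above as an inducer of CD23, was at 3091 and 4546 (-0.56). Its other probe sets read -0.11 and 0.17, so its sign rests on the choice of probe set. The B cell transcription factor Pax5 was at 534.1 and 741.3 (-0.47) by one probe set and at 86.6 and 235.7 (-1.44) by another. By the probe set of highest level, therefore, the receptor for interleukin 4 was as far apart as CD23 itself and the other 10 lay within 2-fold, but Jak1, Notch2 and Pax5 each had a weaker probe set more than 2-fold lower. Averaging each gene's probe sets gave 2 genes at least 2-fold lower, and taking the one of median ratio gave 3.

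Fcgr2b, the inhibitory IgG receptor, differed little. Its probe set of highest level, 1435477_s_at, read 8786 in transgenic and 10678 in non-transgenic cells (-0.28). The other 3 bright probe sets read 5558 and 6078 (-0.13), 5030 and 5984 (-0.25), and 3947 and 4645 (-0.23). These 4 readings spanned 0.15 on the log2 scale, and 86.0% of genes with several probe sets spanned as much or more. The remaining probe set, 1447622_at, lay under the filter at 1.1 and 26.2, the former under the floor, and gives no usable ratio. Of these bright readings, 2 come from probe sets that carry the name endings _s_at and _x_at, which mark probes that may read related transcripts. The extracellular parts of Fcgr2b and of the activating receptor Fcgr3 are closely similar, and whether the probe sets tell them apart could not be checked here; the single Fcgr3 probe set read 328.9 and 304.6 (0.11). Fcgr2b stood above all 12 B cell identity genes in ratio, by 0.28 against their median.

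Genes listed for the Fcgr2b signal, and for the antigen receptor signalling that it damps, lay on both sides of 0. By the probe set of highest level none of 11 measured genes was 2-fold apart, but a dim probe set of Ptpn11 read 41.3 and 119.6 (-1.53). Of the 11, 7 had ratios below 0 and 4 above (5 and 6 with aligned medians). They ran from -0.55 for Ptpn6 to 0.44 for Rasa1, a Ras inhibitor, and the median was -0.07, or 0.10 with aligned medians. The lipid phosphatase gene Inpp5d (SHIP1), the main effector of Fcgr2b, was at 4721 and 4910 (-0.06) and, by a second probe set, at 1142 and 1643 (-0.52), the tyrosine phosphatase gene Ptpn6 (SHP-1) at 11205 and 16442 (-0.55) with its other at -0.13, and the adaptor Blnk at 14581 and 19693 (-0.43). Of 10 other inhibitory receptors of B cells above the filter, 9 had ratios below 0 (8 with aligned medians) and the median was -0.26. One of them, Btla, an inhibitory receptor of the CD28 family, was at least 2-fold lower at 10229 and 22001 (-1.10), but fell short of 2-fold with aligned medians, quantile normalization or loess. Cd22, an inhibitory receptor that binds sialic acid, was at 17564 and 31501 (-0.84), with its other probe set at -1.02. The Fcgr2b ratio of -0.28 was close to the median of these receptors, and among them Cd72, a C-type lectin receptor of B cells, was at 7436 and 8401 (-0.18).

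Fcer1g, the common gamma chain through which activating Fc receptors signal, is a gene of myeloid and natural killer cells more than of B cells. Its 1 probe set, 1418340_at, read 895.8 in transgenic and 987.3 in non-transgenic cells (-0.14), and the sign turned with aligned medians (0.02). Either ratio is smaller in size than the pooled SD of 0.41 for probe sets of 1 gene, which holds no spread between animals. Its companion Tyrobp, the related adaptor DAP12, stood at 5234 and 4082 (0.36), and Syk, the kinase both recruit, at 11203 and 13354 (-0.25). The other 3 Syk probe sets lay further apart, at 5924 and 10681 (-0.85), 1062 and 2912 (-1.46), and 182.8 and 350.8 (-0.94), so that the size of the Syk difference rests on the choice of probe set. By the probe set of highest level none of 9 adaptors and kinases in this group was 2-fold apart, and their median was -0.25.

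Transcripts of cells other than B cells were present on both arrays. Sums below cover all measured genes of a list, also those under the filter, and medians cover only genes above it. The medians of these lists are those of the values as deposited, and of the macrophage, natural killer, neutrophil, dendritic, T cell, basophil and erythroid lists only those of natural killer cells, neutrophils, dendritic cells and basophils kept a median above 0 under all 4 scalings. The macrophage and monocyte list had 11 of 12 genes measured and above the filter, intensities that summed to 12559 in transgenic and 12938 in non-transgenic cells and a median log2 ratio of -0.17, with the lysozyme gene Lyz2 at 5596 and 6515 (-0.22) and the defining receptor gene Csf1r at 3854 and 2728 (0.50). The other defining genes, Adgre1 at 500.2 and 681.2 (-0.45) and Cd14 at 270.9 and 353.9 (-0.39), pointed the other way. Natural killer markers had 10 of 11 genes above the filter, sums of 8126 and 5881 and a median of 0.38, and 1 of them, the receptor gene Klre1 at 442.5 and 203.1 (1.12), was at least 2-fold higher. The defining genes Klrd1, at 1802 and 1374 (0.39), and Ncr1, at 534.3 and 366.4 (0.54), lay on the same side within 2-fold. Of the 10 genes, 7 had ratios above 0 and 3 below. The lower ones were Gzmb at 95.0 and 161.9 (-0.77), Prf1 at 244.2 and 284.3 (-0.22) and Nkg7 at 613.8 and 676.2 (-0.14).

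Neutrophil markers had 7 of 10 above the filter, sums of 8788 and 9490 and a median of 0.60, so that the sum and the median differ in direction. The brightest defining genes, S100a8 and S100a9, which encode the subunits of calprotectin, were at 3687 and 4637 (-0.33) and at 3396 and 3910 (-0.20), and Ngp, a granule protein gene, was at 952.8 and 391.3 (1.28). Of the dendritic cell markers, 8 of 10 were above the filter with sums of 5111 and 3891 and a median of 0.12. Klk1 was at 1363 and 626.5 (1.12) by a probe set marked as shared, and its other 3 probe sets above the filter read 0.32, 0.27 and 0.27. The transcription factor gene Batf3 was at 65.8 and 189.1 (-1.52), above the filter on 1 array only. The defining genes were at 757.6 and 707.7 for Itgax (0.10), 259.7 and 236.2 for Flt3 (0.14) and 118.5 and 71.4 for Zbtb46 (0.73). T cell markers had 7 of 10 above the filter, sums of 1728 and 1885 and a median of -0.36, with Cd4 at 145.7 and 40.5 (1.85) and Thy1 at 95.4 and 219.6 (-1.20), both above the filter on 1 array only. Of the defining genes, Cd3d was at 328.6 and 332.5 (-0.02), Cd3g at 258.2 and 372.7 (-0.53) and Cd3e under the filter. Basophil and mast cell markers were near the floor, with 2 of 9 above the filter. Their sums over 8 measured genes were 554.9 and 404.6, and the median of the 2 kept genes was 0.43. These were Gata2 at 166.3 and 172.3 (-0.05) and Kit at 127.3 and 67.4 (0.92). The defining genes Fcer1a, Ms4a2 and Mcpt8 were all under the filter. Erythroid markers had 2 of 8 above the filter, sums of 272.1 and 335.0 and a median of -0.28, with Slc4a1 at 93.7 and 141.4 (-0.59) and Epor at 131.2 and 128.6 (0.03), while the defining genes Hba-a1 and Alas2 were under the floor on both arrays. No gene of these lists was at an intensity of 0. The part of these cells in the Fcer1g readings was not tested.

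The activating receptors that pair with Fcer1g gave low readings. The high-affinity IgG receptor Fcgr1 was at 102.9 and 109.1 (-0.08) by one probe set and at 43.7 and 152.7 (-1.80) by another, which was above the filter on 1 array only, so its difference rests on the choice of probe set. The IgG receptor Fcgr4 was at 259.2 and 275.6 (-0.09). The high-affinity IgE receptor chain Fcer1a and the receptor for IgA and IgM, Fcamr, were under the filter. Of the 5 other immunoglobulin receptors above the filter, none was at least 2-fold higher and 1 was at least 2-fold lower (2 where each gene's reading of median ratio was taken). This was Pigr, the epithelial transporter of polymeric antibody, at 87.5 and 230.2 (-1.40), which was above the filter on 1 array only. The cytosolic antibody receptor Trim21 was at 1613 and 1172 (0.46), and its second reading was -0.04.

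Fcmr, the IgM receptor, was lower by less than 2-fold. Its single probe set, 1429889_at, read 14008 in transgenic and 19698 in non-transgenic cells (-0.49), or 71.1%. That ratio was close to the median of the B cell identity genes (-0.57), with 3 of the 12 above it and 9 below. Very bright genes leaned lower as a whole, with a median of -0.37 over 122 genes whose mean log2 level was 14 or more. Fcmr stood at -0.33 with aligned medians, -0.35 after quantile normalization and -0.37 after loess.

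The Fc receptor-like genes gave readings that depended on the probe set. For Fcrl1, a B cell surface protein of this family that enhances antigen receptor signalling, probe set 1425062_at read 7097 in transgenic and 9715 in non-transgenic cells (-0.45), and probe set 1425063_at read 4347 and 2727 (0.67). The readings point in opposite directions and lie 1.13 apart, a gap that 10.6% of genes with several probe sets reached. The mean of the 2 was 0.11, so no direction can be given for Fcrl1. Fcrla, a relative kept inside the B cell rather than on its surface, was read as 7872 and 7722 (0.03) by probe set 1419907_s_at, as 3944 and 6314 (-0.68) by 1425802_a_at and as 390.8 and 410.5 (-0.07) by 1419908_at. With probe sets marked as shared left out, Fcrla was represented by the lowest of these ratios, -0.68, so its sign too rests on the choice of probe set.

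Fcgrt, the neonatal Fc receptor, was the other member past 2-fold. Its single probe set, 1416978_at, read 369.8 in transgenic and 882.0 in non-transgenic cells, a log2 ratio of -1.25, or 41.9%. Both readings were well above the filter of 98.8, and among the 1080 genes in the same 10% band of level, 11 had a lower ratio and 29 were at least 2-fold lower. No second probe set was there to set beside it, and 14.9% of genes with several probe sets had readings that differed by 1 or more on the log2 scale. The ratio was -1.09 with aligned medians, -1.21 after quantile normalization, and -1.22 both after loess and with 16 added in place of the floor. Each was past 2-fold, and none reached 3-fold. The other filters, the other floor and the probe set rules could not change the ratio of 1 probe set read well above the floor.

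The protein partner of Fcgrt did not share the size of this difference. B2m, the light chain that Fcgrt needs to leave the endoplasmic reticulum and that class I molecules use as well, was at 32654 and 41289 (-0.34), with its other probe set at -0.39, and its sign turned after quantile normalization. Of 5 partner and trafficking genes above the filter, 1 was at least 2-fold lower, Rab11fip1, an effector of recycling endosomes, at 53.3 and 113.3 (-1.09), which was above the filter on 1 array only and lay inside 2-fold under the other 3 scalings. The median of the 5 was -0.01, and 0.15 with aligned medians, and the recycling GTPase gene Rab11a was at 3118 and 3148 (-0.01), with its other probe set at 840.3 and 424.6 (0.98). Fcgrt is made by macrophages and dendritic cells as well as B cells. The macrophage list had a median of -0.17 with none of its 11 genes at least 2-fold apart, and the dendritic list, of cells that the CD11c gate was set to remove, had a median of 0.12. The part of other cells in the Fcgrt difference was not tested.

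**Figure D3:**
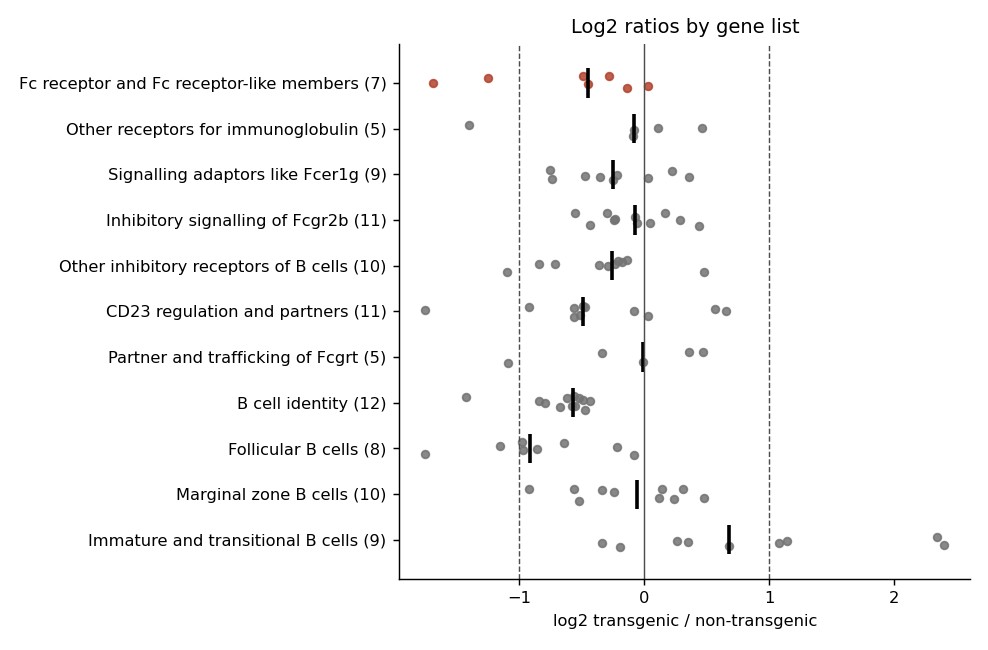
Log2 ratio of each gene above the filter (points, jittered in height) in 11 gene lists, with the list's median as a black bar, the number of genes in brackets and dashed lines at 2-fold. The Fc receptor genes (red) spread from -1.69 to 0.03, the B cell identity genes all lie below 0, and Il4ra at -1.75 is the lowest point of both the CD23 and the follicular lists.

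Fcer2a and Fcgrt stood apart from the other 5 measured genes under each scaling. They kept ratios below -1 under the values as deposited, aligned medians, quantile normalization and loess. Fcmr, Fcgr2b and the main Fcrl1 probe set kept ratios between -0.49 and -0.12 under these 4, and Fcer1g and Fcrla lay between -0.15 and 0.19. In ratio, Fcer2a was lowest, followed by Fcgrt, with Fcmr, Fcrl1, Fcgr2b, Fcer1g and Fcrla above them, and neighbours among the last 5 differed by less than 0.41. Fcmr and Fcrl1 changed places after quantile normalization (-0.35 and -0.44) and loess (-0.37 and -0.41). The difference between Fcer2a and Fcgrt was 0.44.

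**Figure D4:**
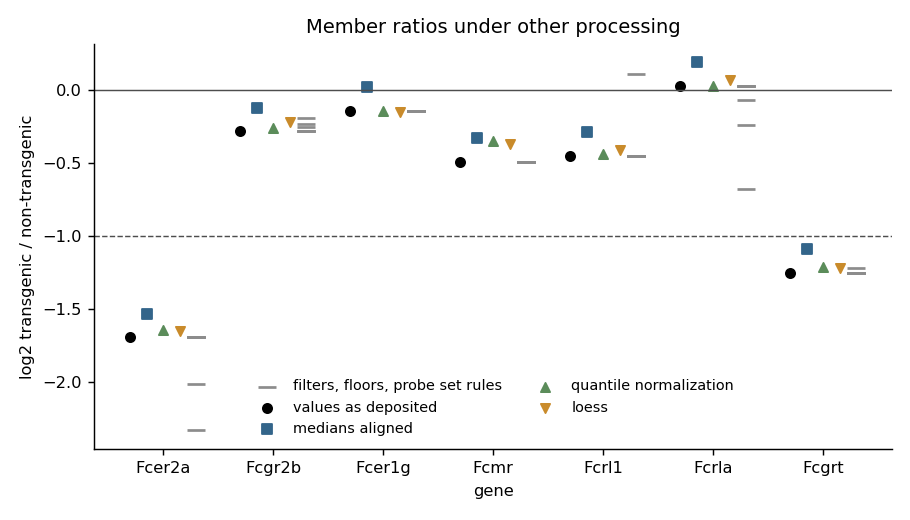
Log2 ratio of the 7 measured genes with the values as deposited (circles), aligned medians (squares), quantile normalization (upward triangles), loess (downward triangles) and other filters, floors and probe set rules (grey dashes), with a dashed line at 2-fold lower. Fcer2a and Fcgrt stay below the dashed line throughout, and the dashes of Fcrl1 and Fcrla cross 0.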

How the data were processed

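Total RNA of B cells was prepared with a column kit and hybridised as biotin-labelled cDNA, per the labels' protocols. The table deposited by the authors holds an intensity for each probe set on a linear scale; the program and scaling behind it are not given in the sources used here. After trimming 2% at each end, the mean intensity was 500.0 for either array, so the values were used as deposited.

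The 64 control probe sets of 45101 were set aside, and of the other 45037, 34945 carry 1 gene symbol, 932 several and 9160 none. Symbols were checked against RefSeq genes of GRCm38.p6, which held 34741 of them and renamed 0. Readings under the floor numbered 11670 in transgenic and 10836 in non-transgenic cells. A single array a group allows no test, and precision is limited by that number.

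The members, the 20 gene lists and the rules were chosen with earlier results of these data known. Named genes were all members' probe sets, of each other list up to 4 genes past 2-fold or otherwise the 2 of highest level, defining markers of the cell type lists and Aire; other list genes, and second probe sets of list genes, were named after their values were seen. The steps were tested on simulated data. Alternatives were 3 other scalings, other filters and floors, a pseudocount of 16, other probe set rules and other fold thresholds. Python 3.11.15, numpy 2.4.6, pandas 2.3.3, statsmodels 0.14.6 and matplotlib 3.10.9 were used.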

Additional observations from a re-analysis of the deposited data

How the results depend on the processing

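The members at least 2-fold lower were Fcer2a and Fcgrt under every alternative except the 3-fold threshold, which left 1, Fcer2a. A filter cannot change a ratio, and the other floor could not change these, whose readings lie well above 25. Nor could the probe set rules change the ratio of Fcgrt, which has 1 probe set. No member was at least 2-fold higher under any alternative of scaling, filter, floor or probe set. The Fcer2a log2 ratio lay between -2.33 and -1.53 over 11 alternatives, and moved by more than the 0.41 between probe sets of 1 gene only where the probe set of median ratio represented the gene (-2.33), since with 2 probe sets that rule takes the lower. Of the genes not past 2-fold, Fcer1g changed sign under 1 of 11 alternatives, Fcrl1 under 1 and Fcrla under 3. The 514 genes at least 2-fold lower became 1244 with no filter, 150 with a filter at the 75th percentile, 213 with both values above the median, 1428 at 1.5-fold and 169 at 3-fold. The 292 higher became 477 with aligned medians, 155 with the probe set of median ratio, 678, 77 and 129 with these filters in the same order, and 1062 and 98 at these folds. Of 494 counts over the other lists and alternatives, 77 differed from the main count by more than 1.5 times or changed to or from 0. No paired analysis was possible because each group is 1 array. Signal over background limits the dim genes: readings under 25 have no order.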

Other observations

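In the RefSeq gene order of GRCm38.p6, the genes beside the members were read as well, up to 5 protein-coding genes on each side. Around Fcer2a, 6 neighbours were above the filter with a median log2 ratio of 0.02 and none was at least 2-fold lower. The lectin genes Cd209a, at 667.0 and 657.7 (0.02) on the transgenic and non-transgenic arrays, and Clec4g, at 99.8 and 98.5 (0.02), stood at almost equal values, and Mcemp1, a mast cell membrane protein gene, was at 136.6 and 38.6 (1.82), above the filter on 1 array only. Around Fcgrt, all 6 neighbours above the filter had ratios below 0, from -0.73 to -0.20 with a median of -0.46, and none was past 2-fold. The nearest kept gene on one side, Nosip, was at 1135 and 1596 (-0.49), and the ribosomal protein gene Rpl13a on the other at 50773 and 68049 (-0.42). These neighbours were chosen after the members' values were seen.

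In the Fc receptor cluster of chromosome 1, the genes beside Fcgr2b included Fcrla (0.03), Fcgr4 (-0.09) and Fcgr3 (0.11), all within 2-fold. Cfap126, a gene of motile cilia in the same stretch, was at 171.9 and 59.1 (1.54), again above the filter on 1 array only, and Sdhc, a subunit of succinate dehydrogenase, was at 1704 and 2635 (-0.63).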
